A study of Mus musculus with 10 samples.

Results

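The histone genes were examined in single mouse embryos with and without *Rreb1*, in 2 sets: the *Hist1* genes, whose cluster lies on the same chromosome as *Rreb1*, and the other histone genes. Members were all rows of the expression table whose symbol began with *Hist1h* to *Hist4h* or *H2af*, or was *H3f3a*, *H3f3b*, *H3f3c*, *H1f0* or *H1fx*. This gave 55 of 20974 genes: 37 *Hist1* genes, 7 genes of the *Hist2* to *Hist4* loci and 11 replacement variants, which include *H1f0* and *H1fx*. The 10 samples were 5 *Rreb1*-/- and 5 *Rreb1*+/+ embryos at embryonic day (E) 7.5, numbered 2 to 6 in each genotype, all from crosses between *Rreb1*+/- parents. The labels give the strain as CD1, while the methods describe a mixed background (CD-1/129 Sv/C57BL6/C2J) outcrossed to CD1, so the embryos are not genetically uniform. The mutant allele was made with CRISPR-Cas9 by deleting most of the coding part of exon 6, and the study combined data from separate deletion lines. The parietal endoderm was taken off for genotyping and RNA came from all of the remaining embryo, so that many cell types are mixed in each library. The study reports that mutants are smaller and develop later than their littermates, so that genotype and stage cannot be told apart in these samples.

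Histones are the proteins around which DNA is wound. The replication-dependent genes, nearly all in the *Hist1* to *Hist4* loci, supply the core histones H2A, H2B, H3 and H4 and the linker H1 during S phase, when new DNA must be packaged. Their transcripts are unusual among messenger RNAs: they end in a short stem-loop, bound by the protein SLBP, instead of a poly(A) tail. Replacement variants such as H3.3, H2A.Z and macroH2A are made throughout the cell cycle from ordinary polyadenylated transcripts. The libraries here were prepared from poly(A)-selected RNA, so the values of *Hist1* to *Hist4* genes count only those transcripts that were carried through that selection.

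The stem-loop and the poly(A) signal are shown first, since they divide the members by how their transcripts can end. The motif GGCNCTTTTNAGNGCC, searched on the sense strand of GENCODE M21 transcripts (GRCm38), was found in 31 members: 30 of the 41 *Hist1* to *Hist4* genes with a usable transcript and 1 replacement variant, *H2afx*. It occurs in 45 of 21901 genes with a protein-coding transcript (0.205%). The stem-loop began 21 to 54 bases after the stop codon, with a median of 32. The sequences below run 5′ to 3′ with the motif in capitals. They are the 3 stem-loop genes with the most reads per kb outside the replacement variants (*Hist1h4i*, *Hist1h1c*, *Hist3h2ba*), *H2afx*, and 3 genes whose annotated transcript ends shortly after the stem-loop.
Hist1h4i: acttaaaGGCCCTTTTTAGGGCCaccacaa
Hist1h1c: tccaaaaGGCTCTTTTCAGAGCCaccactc
Hist3h2ba: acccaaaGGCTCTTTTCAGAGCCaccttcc
H2afx: ccacaaaGGCCCTTTTAAGGGCCaccacct
Hist1h3c: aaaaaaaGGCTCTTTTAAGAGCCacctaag
Hist1h2bj: atccaaaGGCTCTTTTCAGAGCCacgcaca
Hist1h2ab: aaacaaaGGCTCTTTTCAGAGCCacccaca

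The letters of the stem followed the histone class. All 8 H4 genes with the motif had a GGCCC stem, 6 as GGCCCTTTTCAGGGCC and 2 as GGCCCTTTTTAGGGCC. Of the 23 stem-loop genes of the other classes, 22 had GGCTC, most often as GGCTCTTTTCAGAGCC (15 genes). The exception was *H2afx*, with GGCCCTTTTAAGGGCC.

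Several of these genes also carry a poly(A) signal further downstream. The annotated transcript of *Hist1h4i* ran 330 bases past its stem-loop, that of *Hist1h1c* 840, that of *Hist3h2ba* 169 and that of *H2afx* 822. Each of the 4 held AATAAA or ATTAAA within 40 bases of its end, shown here in capitals in windows of 30 bases.
Hist1h4i: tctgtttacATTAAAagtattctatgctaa
Hist1h1c: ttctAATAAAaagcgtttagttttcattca
Hist3h2ba: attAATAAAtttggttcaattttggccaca
H2afx: ATTAAAggatcgtttggttttgttttttta

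The stem-loop genes with the highest levels in these libraries had a poly(A) signal after the stem-loop, but the arrangements overlapped widely in level, and no test compared them. Levels are normalized counts, meaning reads divided by a size factor for each embryo. Of the 30 *Hist1* to *Hist4* genes with the stem-loop, 12 had transcripts ending under 100 bases after it, and their means over the 10 embryos were only 2.01 to 8.34 normalized counts, or 4.68 to 18.0 per kb of transcript. Another 9 ended 100 bases or more after it with a poly(A) signal near the end, and ranged from 2.03 to 238 normalized counts (2.89 to 327 per kb). The other 9 ended as far away without such a signal, and ranged from 2.00 to 25.5 normalized counts (0.805 to 13.2 per kb). The highest 3 per kb, *Hist1h4i*, *Hist1h1c* and *Hist3h2ba*, were all in the second set, which also held *Hist1h2ae* and *Hist1h1t* at 2.89 and 3.38 per kb. In the 11 genes without the motif, means ranged from 1.88 to 160 normalized counts, led by *Hist1h2bc*, whose spliced model carries a 3′ UTR of 742 bases. Medians per kb were 8.82 for the 12 genes ending under 100 bases after the stem-loop, 12.4 for the 9 with a signal, 6.34 for the 9 without one and 7.84 for the 11 without the motif. A missing match says only that these letters are not in the model used. Of the 11 models, 2 have a 3′ UTR of 0 bases, and the pseudogene *Hist1h2al* has none annotated. Transcript ends are those of the annotation, and the ends used in these embryos were not measured.

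**Figure D1:**
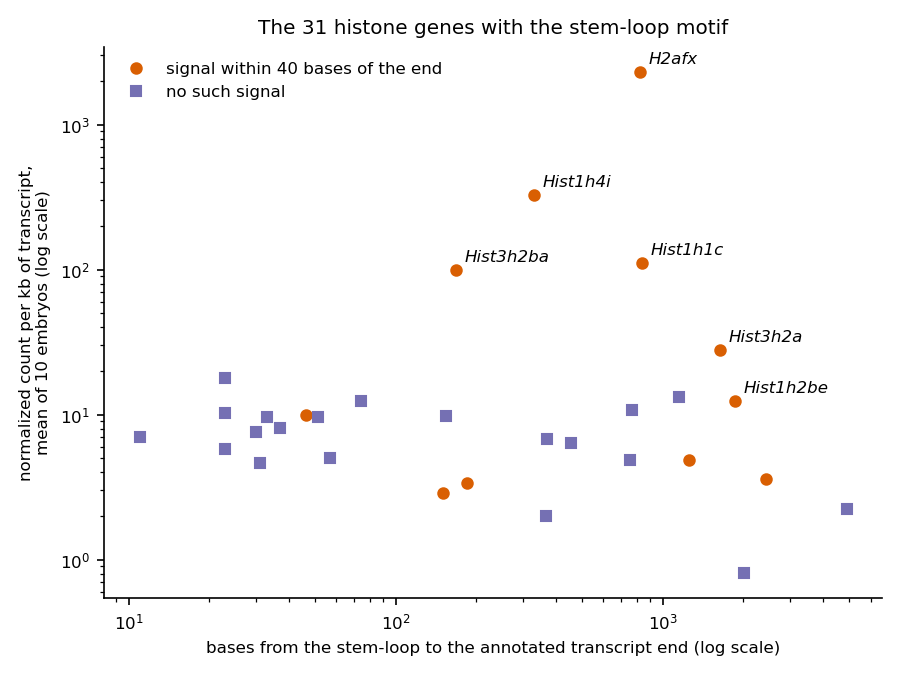
Bases from the stem-loop to the annotated transcript end (x axis, log scale) against normalized counts per kb of transcript, mean of 10 embryos (y axis, log scale), for the 31 histone genes with the motif. Circles have AATAAA or ATTAAA within 40 bases of the end and squares do not. *H2afx*, *Hist1h4i*, *Hist1h1c* and *Hist3h2ba* stand highest, all as circles, and no square exceeds 18.0 per kb.

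Replacement variants made up nearly all histone reads. They held 97.7 to 98.2% of the summed normalized count of the 55 members in *Rreb1*-/- embryos and 98.0 to 98.4% in *Rreb1*+/+ embryos, while the 37 *Hist1* genes together held 1.26 to 1.89% in *Rreb1*-/- and 1.24 to 1.59% in *Rreb1*+/+ embryos. Per kb of transcript, as means over the 10 embryos, *H2afz* (H2A.Z) stood at 10807, *H3f3b* (H3.3) at 8417, *H1f0* (linker H1.0) at 2619 and *H2afx* at 2302. The highest *Hist1* genes per kb were *Hist1h4i* at 327, *Hist1h2bc* at 138 and *Hist1h1c* at 111. As poly(A) selection stands between the transcripts and the reads, these levels do not rank the supply of histone protein.

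Reads assigned to genes in the table numbered 31467767 to 35786876 per embryo. *Rreb1* itself, read over all of its exons, was higher in mutants, at 3988 to 5715 normalized counts in *Rreb1*-/- embryos against 2365 to 2924 in *Rreb1*+/+ embryos (log2 fold change 0.91, adjusted p = 4.82e-04, or 0.0814 with the Y-linked covariate described next). A gene-level count does not isolate the deleted part of exon 6 and so does not check the genotype labels. The summed normalized count of 4 Y-linked genes was over 100 in 4 of the 5 mutants (2.12 to 9171) and in no *Rreb1*+/+ embryo (0 to 3.82), so sex was unevenly spread between the genotypes and cannot be told apart from genotype in full. Markers of epiblast, visceral endoderm and mesoderm were read in every embryo, and parietal endoderm markers, though that layer was removed, summed to 4928 to 17531 in *Rreb1*-/- embryos and 5016 to 9937 in *Rreb1*+/+ embryos. Mutants 2 and 6 were the highest, at 17531 and 15888. They were also highest in the sum of 5 maternal tissue and immune markers, at 1776 and 1045, mostly *Igfbp1* (1614 and 682). In *Rreb1*+/+ embryos that sum was 283 to 581. Other members of this list did not all follow: *Prl8a2*, *Ptprc* and *Lyz2* stood at 2.1, 0 and 4.2 in mutant 2. *Prl8a2* was highest in *Rreb1*+/+ embryo 2 (30.7) and *Ptprc* in *Rreb1*+/+ embryo 5 (40.3), while *Lyz2* was highest in mutant 6 (69.9). The part of such tissue in the histone values was not tested. Among all marker lists 1 gene passed the test, the visceral endoderm gene *Afp* (log2 fold change −1.32, adjusted p = 0.0157). It was 1 of 6 tested in its list, where 4.26% of all genes passed. With the replicate number as a block, 2 of the 5 primitive blood genes tested passed as well, where 6.87% of all genes passed. They were *Hbb-bh1* (log2 fold change −3.29, adjusted p = 0.00342, against 0.254 without the block) and *Gata1* (−0.59, adjusted p = 0.0352, against 0.246 without it).

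No histone gene passed the test between genotypes. Of the 55 members, 21 reached the filter for testing, a mean of at least 15 normalized counts in at least 1 genotype: 8 *Hist1* genes, 3 *Hist2* to *Hist4* genes and 10 replacement variants. By limma at a Benjamini-Hochberg adjusted p under 0.05, 0 of the 21 were higher and 0 were lower in *Rreb1*-/- embryos. Over all 15603 genes tested, 3.11% were higher (486) and 1.15% lower (179). The same 21 genes gave 0 at an unadjusted p under 0.05, where 18.0% of all genes fell, and 0 by edgeR (all genes, 4.32%), 0 by DESeq2 (7.77%) and 0 when the replicate number entered as a block (6.87%). In none of the 21 did the 5 values of one genotype clear the 5 of the other, against 6.70% of all genes. A miss of the threshold does not show that levels were the same. The 95% intervals of the fold change lay within 2-fold either way for 19 of the 21 and within 1.5-fold for 9, and the exceptions at 2-fold were *Hist1h1b* and *Hist3h2ba*.

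The median log2 fold change (*Rreb1*-/- over *Rreb1*+/+) was 0.13 over the 8 *Hist1* genes tested and 0.08 over the 13 others, beside −0.02 over all genes tested. It was above 0 in 17 of the 21 (81.0%; all genes tested, 47.1%). This lean differed with the embryos used. Among replicates 5 and 6 it was above 0 in 18 of 21 genes and the *Hist1* median was 0.49, whereas among replicates 2 to 4 it was above 0 in 10 of 21 and the *Hist1* median was −0.08. With the summed Y-linked count as a covariate it was above 0 in 8 of 21, and the median of the other histone genes was −0.19.

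**Figure D2:**
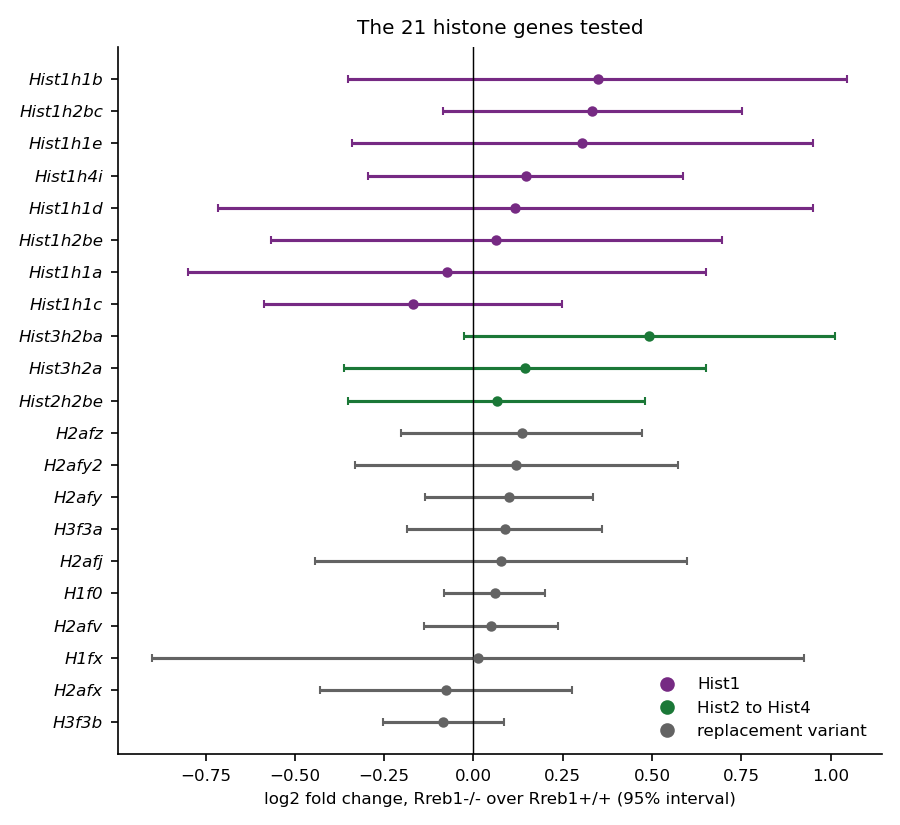
Log2 fold change, *Rreb1*-/- over *Rreb1*+/+ (x axis), with its 95% interval from limma, for the 21 histone genes tested (n = 5 embryos a genotype), grouped by locus from top to bottom: *Hist1*, *Hist2* to *Hist4*, replacement variants. Every interval crosses 0, and the widest belong to *H1fx* and to the low linker genes such as *Hist1h1d*.

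*Hist1h4i*, which encodes histone H4, had the most reads of the *Hist1* genes. Its normalized counts in *Rreb1*-/- embryos 2 to 6 were 188, 276, 196, 225 and 375, against 217, 197, 285, 176 and 242 in *Rreb1*+/+ embryos 2 to 6. Mutant embryo 6 was the highest, and the other 4 mutants lay within the *Rreb1*+/+ range. Its log2 fold change was 0.15 with a 95% interval of −0.30 to 0.59 (adjusted p = 0.753, exact permutation p = 0.540), and it was −0.01 without mutant embryo 6.

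*Hist1h2bc*, an H2B gene, had the smallest p among the *Hist1* genes. It stood at 153, 138, 167, 171 and 269 normalized counts in *Rreb1*-/- embryos and at 169, 126, 139, 110 and 155 in *Rreb1*+/+ embryos. Mutants 5 and 6 were above every *Rreb1*+/+ embryo, and the other 3 overlapped them. For this gene the log2 fold change was 0.33 (95% interval −0.09 to 0.75, adjusted p = 0.395, exact permutation p = 0.143), and 0.18 without mutant embryo 6.

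*Hist1h1c*, the linker histone H1.2, leaned the other way. Its values were 131, 133, 139, 170 and 254 normalized counts in *Rreb1*-/- embryos, against 166, 194, 208, 149 and 190 in *Rreb1*+/+ embryos. The first 3 mutants were below every *Rreb1*+/+ embryo, while mutant 6 was the highest of the 10. Between genotypes the log2 fold change was −0.17 (95% interval −0.59 to 0.25, adjusted p = 0.685, exact permutation p = 0.397), and 0.30 within replicates 5 and 6.

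The other 5 *Hist1* genes tested were low, with means over the 10 embryos of 14.6 to 31.1 normalized counts. They were the linker genes *Hist1h1a*, *Hist1h1b*, *Hist1h1d* and *Hist1h1e* and the H2B gene *Hist1h2be*. Log2 fold changes ran from −0.08 in *Hist1h1a* to 0.35 in *Hist1h1b*, with intervals that reached from −0.80 to 1.05. *Hist1h1e* and *Hist1h2be* overlap on the same strand in the annotation, so the reads of each are uncertain.

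**Figure D3:**
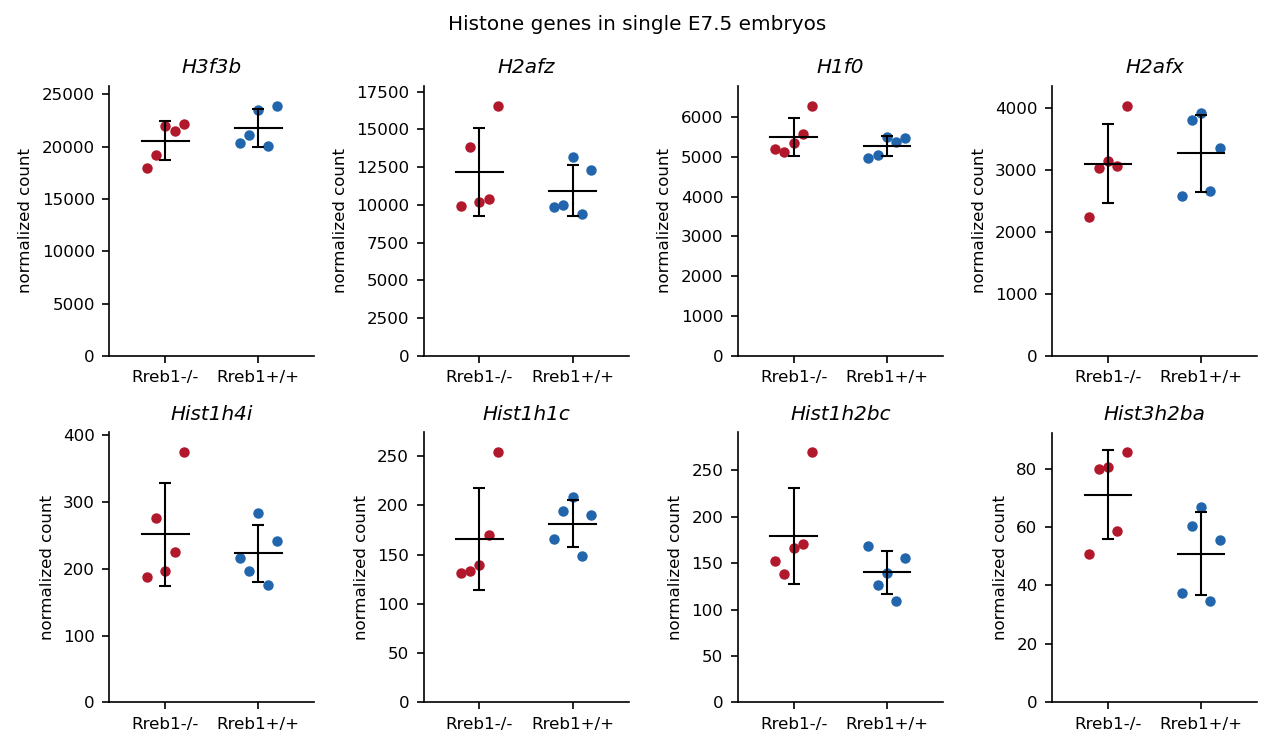
Normalized counts (y axes, from 0) of 8 histone genes in single E7.5 embryos, *Rreb1*-/- on the left and *Rreb1*+/+ on the right of each panel. Each point is 1 embryo, the horizontal line is the mean and the bar is the SD (n = 5 a genotype). The genotypes overlap in all 8 panels. In every panel but that of *H3f3b* a single mutant, embryo 6, stands highest, among replacement variants as well as *Hist* genes.

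The remaining 34 members were too low for the main test: 29 *Hist1* genes, 4 of the *Hist2* to *Hist4* loci and the pseudogene *H2afy3*. The 29 *Hist1* genes held 19 to 123 reads each over all 10 libraries, 14 of them had an embryo with no read, and 19 had a mean under 5 normalized counts. The highest H2A gene of the cluster was *Hist1h2ab*, at 4.13 ± 3.56 normalized counts in *Rreb1*-/- embryos and 2.50 ± 1.45 in *Rreb1*+/+ embryos (SD, n = 5 each). The highest H3 gene was *Hist1h3c*, at 7.86 ± 4.59 in *Rreb1*-/- and 7.86 ± 3.96 in *Rreb1*+/+ embryos. Copies of these genes resemble each other closely: a median of 43.2% of the 50-base windows in the 35 *Hist1* transcripts also occurred in another gene's transcript, and 85.6% in *Hist1h4n*. Assignment of reads to 1 copy is therefore uncertain, and sums over genes are given next.

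Summed over all 37 *Hist1* genes, the normalized counts were 706, 919, 656, 775 and 1221 in *Rreb1*-/- embryos 2 to 6, against 754, 721, 932, 616 and 756 in *Rreb1*+/+ embryos 2 to 6. Mutant 6 was the highest and the remaining mutants lay between 656 and 919, within the range of the *Rreb1*+/+ embryos. Mutants averaged 855 ± 227 and *Rreb1*+/+ embryos 756 ± 114 (SD, n = 5 each), and the log2 values differed by 0.15 between genotypes, within a pooled SD of 0.29.

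By class, the sums of *Hist1* genes overlapped between genotypes throughout. The 6 linker H1 genes came to 247 ± 60.2 normalized counts in *Rreb1*-/- embryos and 253 ± 37.5 in *Rreb1*+/+ embryos (SD, n = 5 each). The 9 H2B genes came to 251 ± 48.0 in *Rreb1*-/- and 198 ± 26.1 in *Rreb1*+/+ embryos, and the 10 H4 genes to 305 ± 102 in *Rreb1*-/- and 264 ± 59.6 in *Rreb1*+/+ embryos. The 7 H3 genes were far lower, at 37.4 ± 15.9 in *Rreb1*-/- and 31.0 ± 6.11 in *Rreb1*+/+ embryos, as were the 5 H2A genes at 15.5 ± 10.7 in *Rreb1*-/- and 9.25 ± 0.745 in *Rreb1*+/+ embryos. The log2 sums differed by −0.06 for H1 (pooled SD 0.28), 0.44 for H2A (0.78), 0.19 for H3 (0.50) and 0.17 for H4 (0.39), each within its pooled SD. For H2B the difference, 0.33, was larger than the pooled SD of 0.23. Its sums were 229, 249, 214.5, 228 and 334 in *Rreb1*-/- embryos 2 to 6, against 225, 180, 215, 162 and 207 in *Rreb1*+/+ embryos 2 to 6, so that 4 of the 5 mutants were above every *Rreb1*+/+ embryo. *Hist1h2bc* made up most of this sum.

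The 29 low *Hist1* genes varied more between embryos than between genotypes. Their summed normalized counts were 112, 217, 81.8, 109 and 217 in *Rreb1*-/- embryos 2 to 6, against 102, 96.4, 177, 87.4 and 104 in *Rreb1*+/+ embryos 2 to 6. Mutants 3 and 6 and *Rreb1*+/+ embryo 4 stood apart as the highest, with the other 7 between 81.8 and 112. By gene, 26 of the 29 were above their own 10-embryo median in mutant 3, 22 in mutant 6 and 20 in *Rreb1*+/+ embryo 4. Each of the other embryos had 8 to 16 such genes. As these copies share sequence, they are not separate measurements, and the same count over other low genes was not made. The same 3 embryos were the highest in *Hist1h4i* and in *H2afz*.

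Other RNAs that normally carry no poly(A) tail were read beside these sums, chosen after the values were seen. *Rpph1*, the RNA of ribonuclease P, stood at 15.9, 76.9, 14.9, 26.9 and 70.9 normalized counts in *Rreb1*-/- embryos 2 to 6, against 25.9, 40.2, 63.0, 25.9 and 28.3 in *Rreb1*+/+ embryos 2 to 6. The small nucleolar RNA *Snora26* stood at 8.48, 57.2, 19.1, 16.7 and 41.7 in *Rreb1*-/- embryos 2 to 6, against 11.5, 33.1, 65.9, 15.4 and 33.9 in *Rreb1*+/+ embryos 2 to 6. Both were highest in mutants 3 and 6 and *Rreb1*+/+ embryo 4. The share of all genes with these 3 embryos highest was not counted, so the match shows nothing particular to such RNAs. In *Rmrp* and *Rn7sk* mutant 2 was the highest instead, at 65.7 and 171 normalized counts. The same 3 embryos came next in *Rmrp*, at 64.7 in mutant 6, 53.0 in mutant 3 and 47.7 in *Rreb1*+/+ embryo 4. In *Rn7sk* they did not, with *Rreb1*+/+ embryos 4 and 5 next, at 158.5 and 156.5, and mutant 6 at 100.1. The part of poly(A) selection, of RNA quality or of cycling cells in these sums was not tested. Leaving out mutant 6 alone gave a log2 difference of 0.02 for the sum over all 37 *Hist1* genes, and leaving out *Rreb1*+/+ embryo 4 alone gave 0.23.

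**Figure D4:**
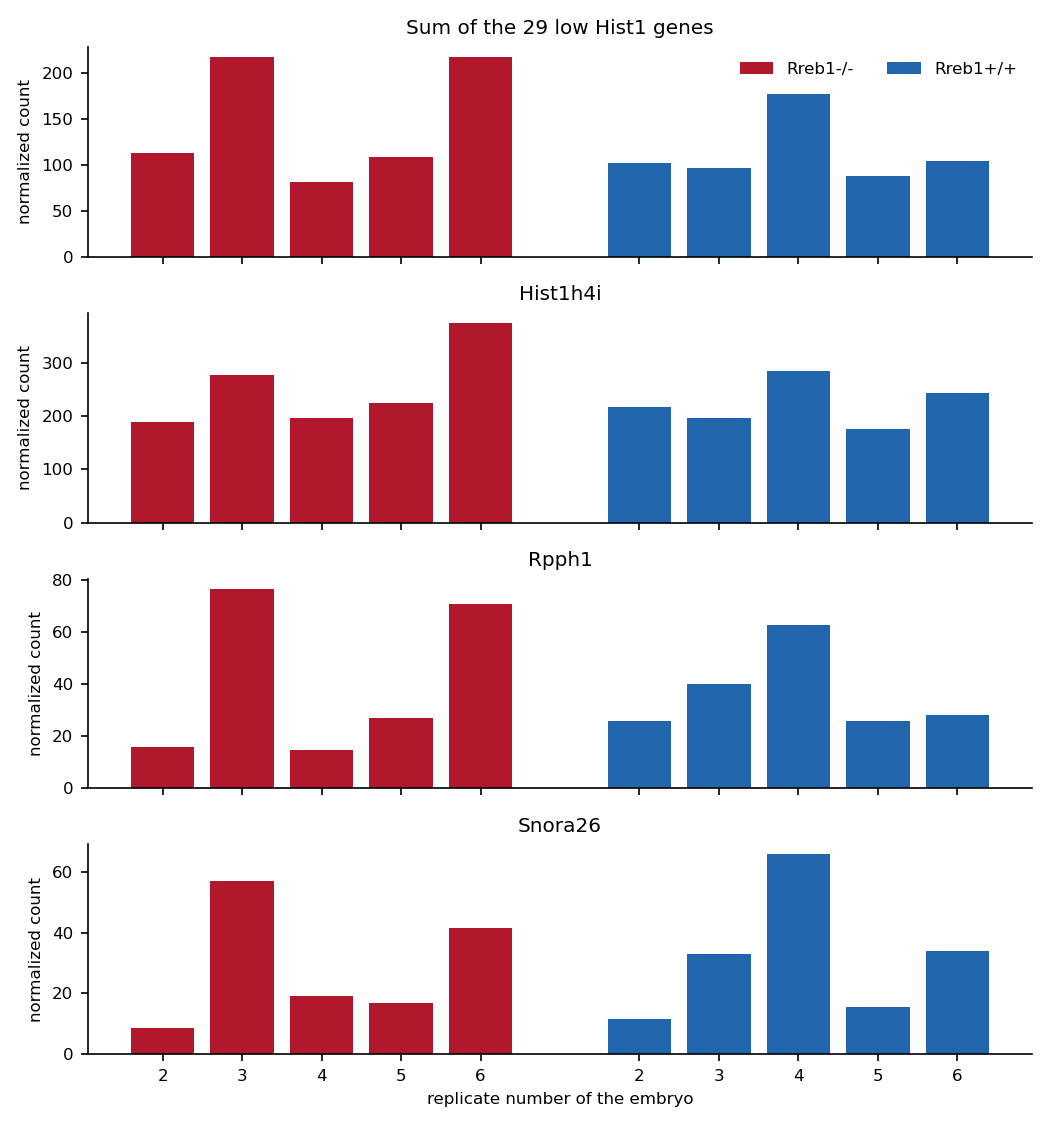
Normalized counts (y axes, from 0) in each embryo, by replicate number (x axis), with the 5 *Rreb1*-/- embryos on the left and the 5 *Rreb1*+/+ embryos on the right. From top to bottom: the sum of the 29 *Hist1* genes too low to test, *Hist1h4i*, *Rpph1* and *Snora26*. In each panel mutants 3 and 6 and *Rreb1*+/+ embryo 4 hold the 3 highest bars. *Rmrp* and *Rn7sk*, in which mutant 2 was the highest, are not drawn.

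Outside the *Hist1* cluster, 3 *Hist* genes were tested. *Hist3h2ba*, an H2B gene, had the smallest p of all members. Its normalized counts were 50.9, 80.0, 80.7, 58.5 and 85.5 in *Rreb1*-/- embryos 2 to 6, against 37.4, 60.2, 66.8, 34.6 and 55.6 in *Rreb1*+/+ embryos 2 to 6. At each of the 5 numbers the mutant was the higher, and 3 mutants were above every *Rreb1*+/+ embryo, but the ranges overlapped. How many of all genes were ordered this way was not counted, and *Hist3h2ba* did not pass with the number as a block. Its log2 fold change was 0.49 (95% interval −0.03 to 1.01, adjusted p = 0.307, exact permutation p = 0.0714). With the Y-linked covariate it was 0.05.

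Its neighbour *Hist3h2a*, an H2A gene, averaged 63.0 ± 18.5 normalized counts in *Rreb1*-/- embryos and 56.3 ± 13.8 in *Rreb1*+/+ embryos (SD, n = 5 each). The log2 fold change was 0.14 (95% interval −0.36 to 0.65, adjusted p = 0.793), and close to 0 without mutant embryo 4. *Hist2h2be* averaged 88.7 ± 14.3 in *Rreb1*-/- and 85.8 ± 19.3 in *Rreb1*+/+ embryos (log2 fold change 0.06, 95% interval −0.35 to 0.48, adjusted p = 0.894). *Hist3h2a* overlaps *Trim17* and *Gm44313* in the annotation. Of the untested genes of these loci, *Hist4h4* and *Hist2h4* had means of 10.2 and 7.97 normalized counts, and the row named *Hist2h2bb* carries an identifier that GENCODE M21 gives to the non-coding *Gm42743*.

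The H3.3 genes, the most abundant H3 transcripts here, had narrow intervals that crossed 0. *H3f3b* had 17906, 19233, 22000.0, 21498 and 22131 normalized counts in *Rreb1*-/- embryos 2 to 6, against 20343, 21066, 23504, 20055 and 23870 in *Rreb1*+/+ embryos 2 to 6. Mutants 2 and 3 were below every *Rreb1*+/+ embryo and the other 3 lay within their range. The log2 fold change was −0.08 (95% interval −0.25 to 0.09, adjusted p = 0.616, exact permutation p = 0.325). *H3f3a*, which encodes the same H3.3 protein, averaged 2920 ± 462 in mutants and 2745 ± 409 in *Rreb1*+/+ embryos (SD, 5 embryos each; log2 fold change 0.09, 95% interval −0.18 to 0.36).

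*H2afz* encodes H2A.Z, a variant found at promoters. Its normalized counts were 9912, 13832, 10160, 10384 and 16545 in *Rreb1*-/- embryos 2 to 6, against 9848, 9980, 13172, 9393 and 12305 in *Rreb1*+/+ embryos 2 to 6. Mutants 6 and 3 and *Rreb1*+/+ embryo 4 were the highest, and the remaining mutants overlapped the remaining *Rreb1*+/+ embryos. The log2 fold change was 0.14 (95% interval −0.20 to 0.47, adjusted p = 0.690), and 0.02 without mutant embryo 6. Of its 50-base windows, 69.6% occur in transcripts of other genes, so its count depends on how shared reads were handled. *H2afv*, the second H2A.Z gene, shares none and averaged 2121 ± 207 in *Rreb1*-/- and 2049 ± 183 in *Rreb1*+/+ embryos (log2 fold change 0.05, 95% interval −0.14 to 0.24).

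*H2afx* encodes H2A.X, which is phosphorylated at DNA breaks. It averaged 3104 ± 635 normalized counts in *Rreb1*-/- embryos and 3267 ± 623 in *Rreb1*+/+ embryos (log2 fold change −0.08, 95% interval −0.43 to 0.28, adjusted p = 0.849). *H2afj* ranged from 323 to 690 in *Rreb1*-/- embryos and from 267 to 552 in *Rreb1*+/+ embryos, with a log2 fold change of 0.08 (95% interval −0.44 to 0.60).

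The linker variants differed greatly in how they varied. *H1f0*, the H1.0 gene, was the steadiest member, with a coefficient of variation of 6.91% over the 10 embryos. It averaged 5498 ± 468 in *Rreb1*-/- embryos and 5267 ± 243 in *Rreb1*+/+ embryos (log2 fold change 0.06, 95% interval −0.08 to 0.20, adjusted p = 0.674). *H1fx* was the most variable of the 21 genes tested, at 46.8%. Its values were 202, 593, 257, 612 and 917 in *Rreb1*-/- embryos and 268, 437, 609, 333 and 699 in *Rreb1*+/+ embryos, a 4.53-fold range in which the genotypes overlapped. The log2 fold change was 0.01 (95% interval −0.90 to 0.92). *H1fx* overlaps *Gm5577* and *Gm47286* in the annotation, 1 of them on the same strand, so its reads are uncertain.

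The macroH2A genes were the members that separated embryos by replicate number. *H2afy* (macroH2A.1) had 3402, 3141, 2990.3, 3993 and 3836 normalized counts in *Rreb1*-/- embryos 2 to 6, against 3172, 2826, 2840.5, 3712 and 3666 in *Rreb1*+/+ embryos 2 to 6. Embryos 5 and 6 of both genotypes were above all embryos 2 to 4. *H2afy2* (macroH2A.2) did the same, at 1891, 2096, 2095, 3808 and 2933 in *Rreb1*-/- embryos and 1791, 2098, 1944, 2851 and 2933 in *Rreb1*+/+ embryos. These were 2 of the 21 histone genes tested (9.52%), beside 8.67% of all genes tested, so the share is near the background.

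Between genotypes, *H2afy* had a log2 fold change of 0.10 (95% interval −0.14 to 0.33, adjusted p = 0.673) and *H2afy2* of 0.12 (95% interval −0.33 to 0.57, adjusted p = 0.807). Within replicates 2 to 4 the log2 fold changes were 0.11 and 0.06, and within replicates 5 and 6 they were 0.09 and 0.21. At every number the mutant had the higher *H2afy* value, but the share of all genes ordered this way was not counted. *H2afy* did not pass with the number as a block either. The sums of 2 marker lists, primitive blood and epiblast, moved along the same division, while those of the other marker lists overlapped across it. Within these 2 lists, single values of *Hbb-y* and *Utf1* also overlapped across it. The summed normalized count of 5 primitive blood markers in embryos 5 and 6 was 2938 and 2635 in *Rreb1*-/- and 12223 and 7972 in *Rreb1*+/+, against at most 449 in *Rreb1*-/- and 1599 in *Rreb1*+/+ among embryos 2 to 4. The sum of 4 epiblast markers was 15042 to 19992 in embryos 5 and 6 of both genotypes and 33547 to 48806 in embryos 2 to 4. Their part in the macroH2A levels was not tested, and in whole embryos a change in the share of a cell type and a change in RNA per cell cannot be told apart.

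**Figure D5:**
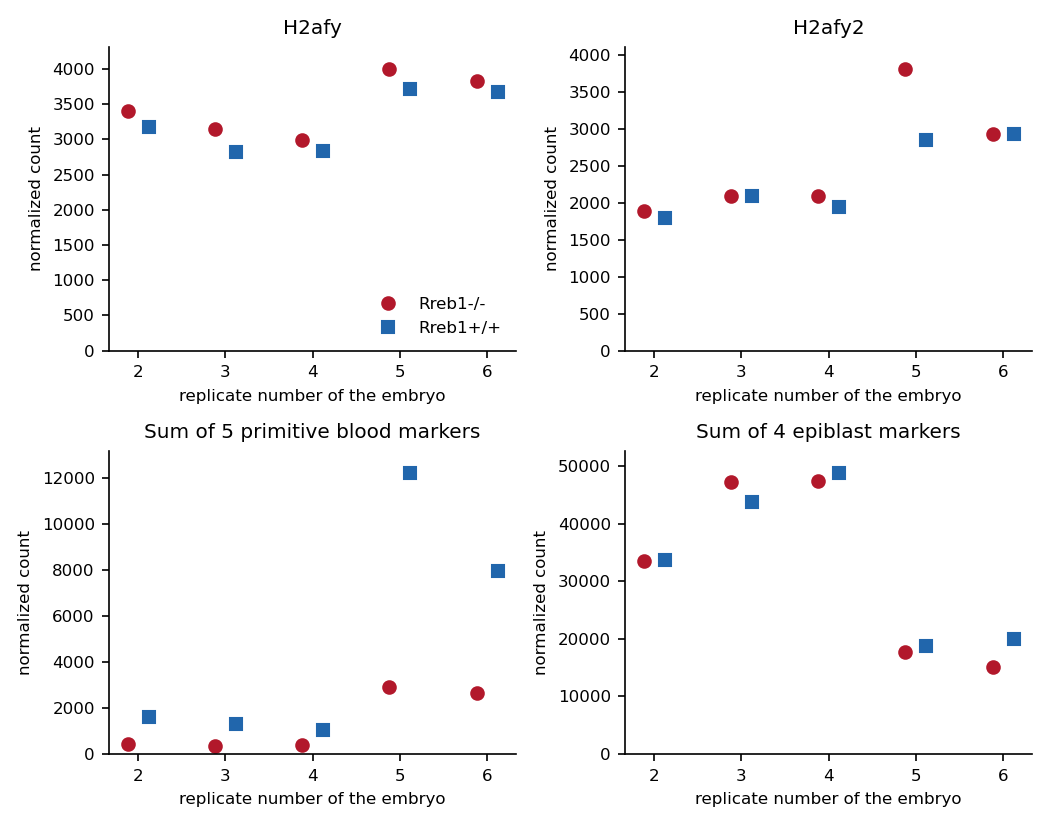
Normalized counts (y axes, from 0) by replicate number (x axes) of *H2afy*, *H2afy2*, the sum of 5 primitive blood markers and the sum of 4 epiblast markers. Circles are *Rreb1*-/- embryos and squares *Rreb1*+/+ embryos. Embryos 5 and 6 of both genotypes lie above embryos 2 to 4 in the first 3 panels and below them in the epiblast panel.

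The chromosome shared with *Rreb1* was read through the neighbours of the cluster. In GENCODE M21 (GRCm38) the *Hist1* cluster spans chr13:21715763-23934851 and ends 13.8 Mb before *Rreb1*, which lies at chr13:37778400-37952005. The pseudogene *Hist1h2al* lies beyond *Rreb1* and was left out of this interval. Between the first and last *Hist1* gene the table holds 18 genes that are no histones, and 0 of the 7 tested passed the test, by edgeR and DESeq2 as well as by limma and also at an unadjusted p under 0.05. Their median log2 fold change was 0.09. Within 20 Mb of *Rreb1* either way, 11 of 213 genes tested passed (5.16%), against 4.26% of all genes tested. All 11 lay outside the interval between the first and last *Hist1* gene, 6 of them higher and 5 lower in mutants. Among them was *AK157302*, with the lowest log2 fold change of the 213 (−5.60). The smallest adjusted p of this set by limma, 4.64e-06, was also the smallest of all genes tested. The cause was not tested. By edgeR 12 of the 213 passed (all genes, 4.32%), by DESeq2 25 of the 213 (all genes, 7.77%) and with the replicate block 19 of the 213 (all genes, 6.87%). In 22 of the 213 the genotypes did not overlap (all genes, 6.70%), and 48 of the 213 had an unadjusted p under 0.05 by limma (all genes, 18.0%). Each of these shares lay above that of all genes, and no test compared them.

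Genes that make, process, degrade and deposit histones were read as lists chosen for the pathway. None of the members below passed the test by limma, in any of the 5 lists. In the supply list, *Npat* (the activator of histone gene transcription) and *Slbp* (the stem-loop binding protein) averaged 3071 ± 418 and 5147 ± 471 normalized counts in *Rreb1*-/- embryos, against 2990 ± 195 and 5188 ± 164 in *Rreb1*+/+ embryos (SD, n = 5 each). Their log2 fold changes were 0.03 (95% interval −0.17 to 0.23) and −0.02 (−0.16 to 0.13). The median over the 22 genes of that list was −0.03, beside −0.02 over all genes tested. At an unadjusted p under 0.05 stood 6 of the 22, where 18.0% of all genes fell, and all 6 had negative log2 fold changes, −0.12 to −0.25: *Hinfp*, *Pou2f1*, *Srrt*, *E2f1*, *E2f4* and *Cdk2*, named after their values were seen. Of these only *Cdk2*, a kinase that activates NPAT, did not overlap between genotypes, 1 of the 22, where 6.70% of all genes did not. Its normalized counts were 3583 ± 190 in mutants and 3900.2 ± 35.6 in *Rreb1*+/+ embryos (SD, 5 embryos each, adjusted p = 0.217). In the lists given next, non-overlapping genes were 0 of 12 in decay and 0 of 17 in cleavage and polyadenylation. They were 1 of 25 among chaperones (*Asf1b*) and 2 of 26 in S phase (*Mcm4* and *Mcm7*). With the replicate number as a block 1 of the 22 passed, the transcription factor gene *E2f4* (log2 fold change −0.25, adjusted p = 0.0289, against 0.247 without the block), where 6.87% of all genes passed.

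Of 12 genes of histone mRNA decay 0 passed (median −0.04), with 2 at an unadjusted p under 0.05 (all genes, 18.0%). *Upf1*, the helicase recruited to histone mRNA at the end of S phase, had the lowest log2 fold change, −0.31 (adjusted p = 0.162). The second gene, *Lsm1*, went the other way, at 0.18 (adjusted p = 0.259). Of 17 genes of general cleavage and polyadenylation 0 passed (median −0.06), with 2 at an unadjusted p under 0.05 (all genes, 18.0%). With the block 1 of the 17 passed (all genes, 6.87%), *Cpsf1*, a subunit of the complex that reads the poly(A) signal (log2 fold change −0.29, adjusted p = 0.0445, against 0.175 without it).

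Of 25 histone chaperones 0 passed (median −0.08), with 3 at an unadjusted p under 0.05, a share below the 18.0% of all genes. The 3 were *Asf1b*, *Chaf1a* and *Chaf1b*, at log2 fold changes of −0.20, −0.20 and −0.21 (adjusted p = 0.158, 0.243 and 0.164), named after their values were seen. *Hira*, a chaperone of H3.3, had −0.10 (95% interval −0.26 to 0.06).

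Of 26 genes of S phase and DNA replication 0 passed by limma and 0 by edgeR, while 4 passed by DESeq2 (all genes, 7.77%) and 2 under the replicate block (all genes, 6.87%). The median was −0.09, the lowest of the 5 lists, and 7 genes had an unadjusted p under 0.05 (all genes, 18.0%). The 2 under the block were *Mcm7*, a subunit of the replicative helicase, and *Lig1*, which joins Okazaki fragments. *Mcm7* averaged 13394 ± 932 normalized counts in *Rreb1*-/- embryos and 15381 ± 416 in *Rreb1*+/+ embryos (log2 fold change −0.20, adjusted p = 0.0682 without the block and 0.0440 with it). *Lig1* averaged 6237 ± 661 in *Rreb1*-/- and 7475 ± 555 in *Rreb1*+/+ embryos (log2 fold change −0.26, adjusted p = 0.104 without it and 0.0354 with it).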

How the data were processed

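RNA-seq values of 10 single embryos were used. The authors made stranded libraries from poly(A)-selected RNA, aligned the reads by two-pass STAR, counted them per gene by HTSeq and scaled them with DESeq size factors. The deposited signal, called a normalized count here, is thus reads over a size factor. Dividing each embryo's values by their smallest step gave whole reads for 100% of values (within 0.1 read), which served for depth and for fits with edgeR 4.0.16 and DESeq2 1.42.0. No source used here gives the authors' genome build, gene models or use of strand in counting. Positions and transcripts come from GENCODE M21 by identifier (53 of 55 members). Of the 70 *Hist1* to *Hist4* genes there, 29 identifiers are not in the table and were not analysed here.

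The 15603 genes that averaged 15 or more in either genotype were compared with limma 3.58.1 (R 4.3.3) after adding 1 and taking log2, with Benjamini-Hochberg adjustment over all of them at a threshold of 0.05. A fold change on this scale understates the change of low genes. Single genes were also compared by an exact two-sided permutation test over 252 arrangements, whose smallest p is 0.00794. The procedure was tested on simulated data. Each library is 1 embryo.

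Same-numbered embryos of the 2 genotypes deviated together (correlations of 0.253 to 0.459 over genes in the 5 pairs), so the number was also fitted as a block. Nothing in the sources says what the number stands for. Named genes were *Rreb1*, any called histone gene (none), the highest *Hist1* gene of each class, the 3 highest *Hist2* to *Hist4* genes, the replacement variants and called pathway genes. Other members and pathway genes given with values, and the RNAs without a poly(A) tail, were added after values were seen. The members and lists were chosen with earlier results of these data known. Alternatives were the block, edgeR, DESeq2, quantile normalization, TMM factors, pseudocounts of 0.5 and 5, no filter, a mean of at least 50, the log2 of the summed Y-linked count as a covariate, an added 2-fold threshold, replicates 2 to 4 or 5 and 6 alone, and leaving out each embryo. The end of the cluster interval was chosen after seeing the data.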

Additional observations from a re-analysis of the deposited data

Results flagged for a closer look

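In 3 of 52 groups of 5 embryos, 1 embryo stood far from the others, while chance alone marks about 1 in 20 such groups. *Hist1h1a*, a linker histone gene, had 23.9 normalized counts in *Rreb1*-/- embryo 3, against 12.5 to 14.9 in the other mutants. *Hist1h2bc* had 269.1 in *Rreb1*-/- embryo 6, against 138 to 171 in the other mutants. The sum of the 29 *Hist1* genes too low to test was 176.6 in *Rreb1*+/+ embryo 4, against 87.4 to 104 in the other *Rreb1*+/+ embryos.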

How the results depend on the processing

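No histone gene was called under any of the 23 alternatives. Over all genes tested, 665 were called by limma, 674 by edgeR, 1213 by DESeq2 and 1072 under the replicate block. The block changed no call of a histone gene or of *Rreb1*, and its pathway and marker calls are given above. The *Hist1* median log2 fold change, 0.13, was 0.49 in replicates 5 and 6 alone and 0.01 to 0.28 when 1 embryo at a time was left out. The median of the other histone genes, 0.08, was −0.19 with the Y-linked covariate and 0.02 to 0.15 with 1 embryo left out. *Rreb1* had a log2 fold change of 0.85 (adjusted p = 0.0814) with that covariate, which nearly coincides with genotype. Of 374 values of single named genes, 343 kept direction and call and 30 changed direction, in 12 of 17 genes. With the covariate these were *Hist1h4i* (−0.26), *Hist3h2a* (−0.30), *H1f0* (−0.037), *H1fx* (−1.10), *H2afj* (−0.33), *H2afv* (−0.19), *H2afy2* (−0.25), *H2afz* (−0.14) and *H3f3a* (−0.17). In replicates 2 to 4 alone they were *Hist1h4i* (−0.084), *H1fx* (−0.40), *H2afj* (−0.19), *H2afv* (−0.028) and *H3f3a* (−0.0047), and in replicates 5 and 6 alone *Hist1h1c* (0.30), *Hist2h2be* (−0.046) and *H2afx* (0.23). With 1 embryo left out, values ranged from −0.0087 to 0.24 in *Hist1h4i* (negative without mutant 6), −0.00044 to 0.27 in *Hist3h2a* (without mutant 4), −0.060 to 0.15 in *Hist2h2be* (without mutant 4 or *Rreb1*+/+ embryo 4), −0.10 to 0.19 in *H2afj* (without mutant 6 or *Rreb1*+/+ embryo 5) and −0.035 to 0.22 in *H2afy2* (without mutant 5). They ranged from −0.18 to 0.034 in *H2afx* (positive without mutant 2) and −0.25 to 0.30 in *H1fx* (negative without mutant 3, 5 or 6 or *Rreb1*+/+ embryo 2 or 5). The cause was not tested. The 34 members below the filter were not tested in the main fit, and none was called in the fit without a filter.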
